A study of Homo sapiens with 2 samples.

Results

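The messenger RNAs of 9 genes of major histocompatibility complex (MHC) class I antigen presentation were followed in L3.6, an established human pancreatic ductal adenocarcinoma (PDAC) cell line, with and without knockdown of ESE1, an epithelial ETS transcription factor encoded by *ELF3*. The genes were chosen by name for their function, with earlier results of these data known. All 9 were found once or more among the 60612 genes listed. They were the class I heavy chains *HLA-B*, *HLA-C* and *HLA-E*, the light chain *B2M*, and the peptide-loading genes *TAP1* and *TAPBP*. The others were the immunoproteasome subunits *PSMB8* and *PSMB9* and the class I transactivator *NLRC5*. RNA was sequenced from 1 library of control cells (shCtrl) and 1 library of knockdown cells (shESE1). According to the study's methods, both carried a pLKO-based lentiviral shRNA, non-targeting in shCtrl and directed at *ESE1* in shESE1, and both were stable puromycin-selected lines, whereas the label of the control gives no treatment. Which *ESE1* shRNA was used for sequencing is not given in the sources used here. No time, interferon or other stimulus is given for either library.

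MHC class I molecules carry short peptides from proteins made inside the cell to its surface, where CD8+ T cells inspect them. The peptides are cut by the proteasome, in which interferon-inducible subunits can take the place of the constitutive ones, are pumped into the endoplasmic reticulum by the TAP transporter, and are loaded on a heavy chain paired with beta-2 microglobulin. In epithelial tumours, including PDAC, the amount of class I at the surface is one of the properties that decide whether T cells can see the tumour.

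In this pair of libraries, the class I genes did not move as a block. The heavy chains *HLA-B* and *HLA-C*, the loading genes, the immunoproteasome subunits and *NLRC5* were at higher levels in shESE1 cells, by 1.20-fold for *PSMB9* to 1.82-fold for *TAP1*. *HLA-E* was 1.63-fold lower and *B2M*, the light chain that every class I molecule needs, was 1.37-fold lower. With 1 library per condition there is no spread between cultures to hold these differences against, so they describe these libraries and carry no p-value.

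The values are FPKM, a level scaled to gene length and library size, with whole-number counts behind them. A pseudocount of 1 FPKM was added before each log2 change of shESE1 over shCtrl was taken, which makes differences between low levels look smaller than they are. Genes reaching 1 FPKM in either library, 12520 of them, were compared. The intervals given are 95% exact (Clopper-Pearson) intervals of the log2 FPKM ratio with no pseudocount, and they cover counting error only. The shCtrl library had 56853971 counts in total and the shESE1 library 60786475. *ELF3*, the targeted gene, was at 20.4 FPKM in shCtrl and 10.7 FPKM in shESE1 (log2 change of −0.88). Mitochondrial transcripts took 12.4% and 3.79% of the counts, a share that enters the FPKM of every other gene, and its part in the differences was examined only by taking these transcripts out of the totals. Of the markers of other cell types, 1 of 10 leukocyte markers reached 1 FPKM, namely *CD68*, at 3.70 FPKM in shCtrl and 7.94 FPKM in shESE1. The summed level of the 10 leukocyte markers was 3.84 FPKM in shCtrl and 8.04 FPKM in shESE1, with *PTPRC*, *CD3E*, *MS4A1*, *CD14*, *LYZ* and *CD2* at 0 counts in both. Of the fibroblast markers only *COL1A1* reached 1 FPKM, at 4.53 FPKM in shCtrl and 2.25 FPKM in shESE1 (−0.77). Of the endothelial markers only *CDH5* did, at 1.18 and 1.16 FPKM. All 8 pancreatic epithelial markers were measured, 5 of them higher and 3 lower in shESE1. Among these, *KRT19* was at 464 and 606 FPKM and *EPCAM* at 117 and 110 FPKM, whereas *CDH1* (E-cadherin) was past 2-fold lower, at 16.3 and 6.95 FPKM (−1.13), and *MUC1* was at 5.41 and 2.48 FPKM (−0.88).

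The classical heavy chains form the peptide groove that T cell receptors read. *HLA-B* (ENSG00000234745; GRCh38 chromosome 6, 31269491 to 31357179, minus strand) was at 15.2 FPKM in shCtrl and 23.3 FPKM in shESE1, from 3127 and 5215 counts. It was 1.53-fold higher in shESE1, a log2 change of 0.58 (interval 0.55 to 0.68), and 87.8% of the compared genes had a lower change. *HLA-C* (ENSG00000204525; chromosome 6, 31268749 to 31272105, minus strand), a classical chain that is also a ligand of killer-cell receptors, was at 52.3 FPKM in shCtrl and 66.1 FPKM in shESE1, from 8835 and 12164 counts. Its log2 change was 0.33 (interval 0.30 to 0.38), larger than that of 74.1% of the compared genes. Both classical chains of the set were thus higher in the knockdown library, *HLA-B* more so than *HLA-C*, whose level was more than 2-fold that of *HLA-B* in each library.

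*HLA-E* and *B2M* stood on the other side. *HLA-E* (ENSG00000204592; chromosome 6, 30489509 to 30494194, plus strand), a non-classical chain that shows leader peptides of other class I chains to the NKG2A receptor of natural killer cells, was at 94.5 FPKM in shCtrl and 58.1 FPKM in shESE1, from 18590 and 12460 counts. Its log2 change of −0.69 (interval −0.73 to −0.67) was lower than that of all but 8.28% of the compared genes. *B2M* (ENSG00000166710; chromosome 15, 44711487 to 44718877, plus strand), the only member besides *NLRC5* outside the MHC region on chromosome 6, was at 96.1 FPKM in shCtrl and 70.4 FPKM in shESE1, from 39333 and 31395 counts. Its log2 change was −0.44 (interval −0.47 to −0.43). In shCtrl cells *B2M* and *HLA-E* had nearly the same level and were the highest of the 9 genes. In shESE1 cells *B2M* was still the highest, but *HLA-C* had a higher level than *HLA-E*.

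**Figure D1:**
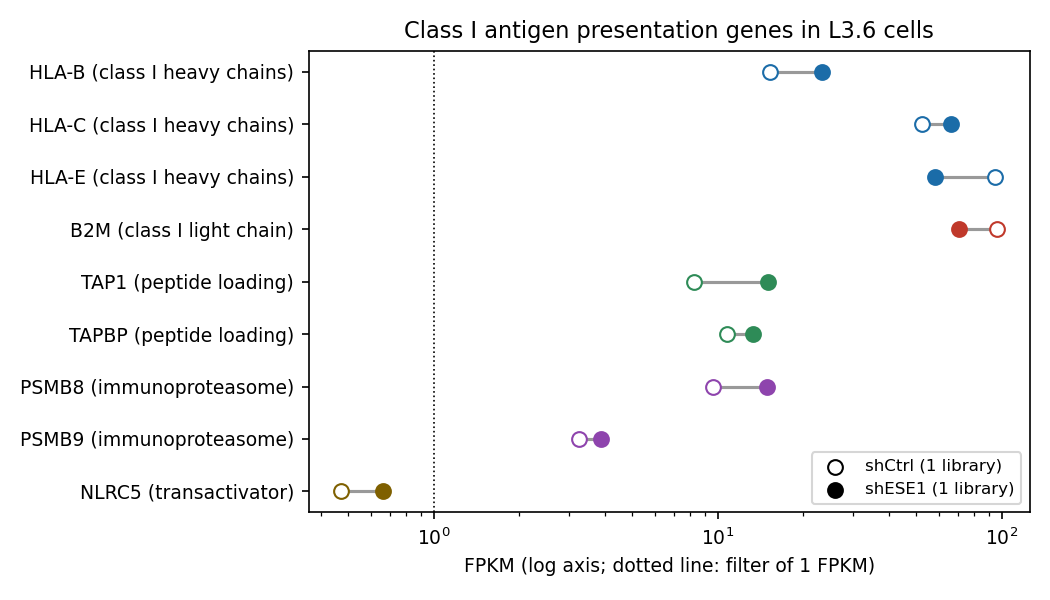
FPKM of each class I gene in the shCtrl and the shESE1 library on a log axis, 1 point per library joined by a line. *HLA-E* went from 94.5 to 58.1 FPKM and *B2M* from 96.1 to 70.4 FPKM, whereas the other 7 genes had the higher level in shESE1.

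*TAP1* had the largest upward change of the members. *TAP1* (ENSG00000168394; chromosome 6, 32845209 to 32853978, minus strand), which encodes 1 of the 2 chains of the peptide transporter, was at 8.25 FPKM in shCtrl and 15.0 FPKM in shESE1, from 2671 and 5298 counts. Its log2 change was 0.79 (interval 0.80 to 0.93, without a pseudocount), larger than that of 93.9% of the compared genes. *TAPBP* (ENSG00000231925; chromosome 6, 33299694 to 33314251, minus strand) encodes tapasin, which bridges the heavy chain to the transporter. It was at 10.8 FPKM in shCtrl and 13.3 FPKM in shESE1, from 3665 and 4953 counts, a log2 change of 0.29 (interval 0.25 to 0.37).

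*PSMB8* (ENSG00000204264; chromosome 6, 32840717 to 32844679, minus strand), the immunoproteasome subunit that takes the place of *PSMB5*, was at 9.61 FPKM in shCtrl and 14.9 FPKM in shESE1, from 2253 and 3795 counts. Its log2 change was 0.58 (interval 0.55 to 0.70), nearly that of *HLA-B*. *PSMB9* (ENSG00000240065; chromosome 6, 32844136 to 32859851, plus strand), which takes the place of *PSMB6*, was at 3.24 FPKM in shCtrl and 3.89 FPKM in shESE1, from 729 and 955 counts, a log2 change of 0.21 (interval 0.13 to 0.41). *PSMB8* therefore had both the higher level and the larger change of the 2 subunits.

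*NLRC5* (ENSG00000140853; chromosome 16, 56989485 to 57083524, plus strand), a NOD-like receptor family protein that acts in the nucleus on class I promoters, was at 0.472 FPKM in shCtrl and 0.663 FPKM in shESE1, from 399 and 608 counts. It stayed under 1 FPKM in both libraries and was not among the compared genes. Its ratio without a pseudocount was 1.40-fold (interval of the log2 ratio 0.30 to 0.67).

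None of the 8 members compared passed 2-fold in either direction, with or without the pseudocount. Below, a gene is said to pass 2-fold when its log2 change with the pseudocount of 1 FPKM does. Among all compared genes, 408 (3.26%) passed 2-fold downward in shESE1 and 393 (3.14%) upward. Without the pseudocount, a setting chosen after seeing the data, 1062 (8.48%) passed downward and 686 (5.48%) upward. At shares this small, lists as short as those below are expected to have few genes past 2-fold, or none. Rescaling without mitochondrial transcripts gave 568 lower (4.42%) and 293 higher (2.28%) of 12842 genes. TPM gave 873 lower (5.32%) and 1432 higher (8.72%) of 16416, with 1 of 9 members (*TAP1*) among the latter. CPM with TMM scaling gave 945 lower (6.21%) and 686 higher (4.51%) of 15224. The pseudocount and the filter were then 1 TPM or 1 CPM, so these counts differ from the main ones in more than the scaling. The median log2 change of the 8 members was 0.31, from −0.69 to 0.79, with 6 above 0 and 2 below. Over all compared genes the median was 0.02 and the quartiles were −0.31 and 0.34, with 51.5% of the genes above 0. *TAP1*, *HLA-B* and *PSMB8* lay above the upper quartile and *HLA-E* and *B2M* below the lower one, while *HLA-C*, *TAPBP* and *PSMB9* lay within the middle range of genes.

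**Figure D2:**
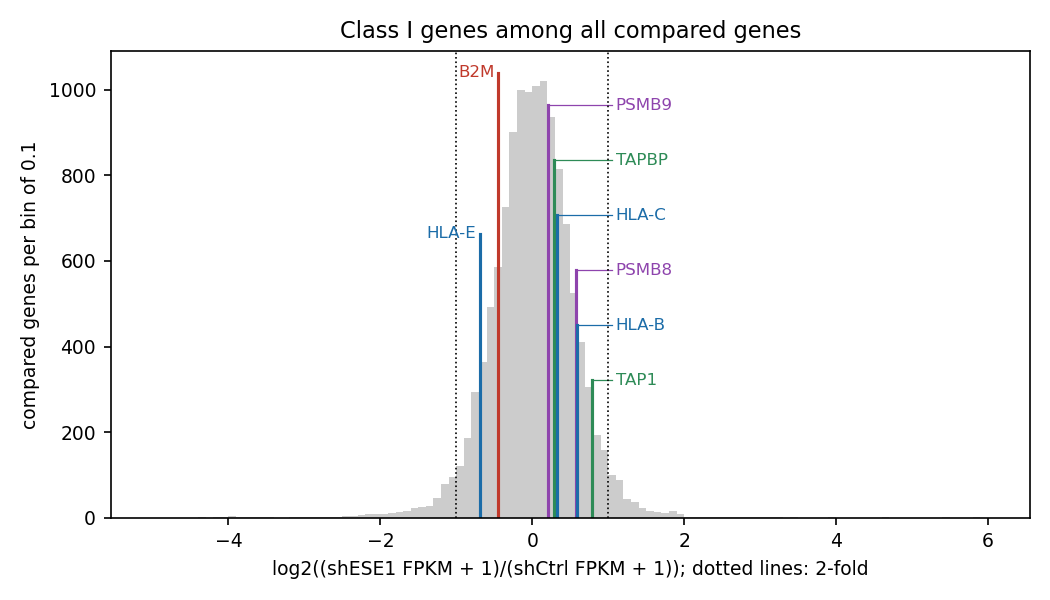
Histogram of the log2 change of all 12520 compared genes in bins of 0.1 with the 8 compared class I genes as coloured lines, whose heights only separate the labels, and dotted lines at 2-fold. *HLA-E* (−0.69) and *B2M* (−0.44) lie left of the centre, *TAP1* (0.79) is farthest to the right, and no gene's vertical line reaches 2-fold.

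The upstream sequences are shown because genes that differed in opposite directions carried the same interferon regulatory factor (IRF) element. RefSeq sequence on GRCh38.p14 was found for 7 of the 9 genes, not for *HLA-E* and *NLRC5*, and the 250 bases before the annotated start were searched on both strands. The capitals mark matches to the IRF element AANNGAAA, read on either strand. The windows are chr6:31357180-31357429 for *HLA-B*, chr6:31272093-31272342 for *HLA-C* and chr6:32853705-32853954 for *TAP1*, all on the minus strand, and chr15:44711267-44711516 on the plus strand for *B2M*.
HLA-B: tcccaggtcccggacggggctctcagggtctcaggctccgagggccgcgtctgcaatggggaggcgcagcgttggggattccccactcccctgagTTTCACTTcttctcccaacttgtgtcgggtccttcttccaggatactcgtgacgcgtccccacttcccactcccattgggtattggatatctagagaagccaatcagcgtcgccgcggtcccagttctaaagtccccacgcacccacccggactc
HLA-C: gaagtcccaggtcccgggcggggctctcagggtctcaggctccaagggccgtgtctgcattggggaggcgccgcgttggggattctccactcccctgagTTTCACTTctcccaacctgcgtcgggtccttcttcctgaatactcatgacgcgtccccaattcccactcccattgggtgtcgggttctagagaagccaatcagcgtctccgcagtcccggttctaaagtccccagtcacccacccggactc
TAP1: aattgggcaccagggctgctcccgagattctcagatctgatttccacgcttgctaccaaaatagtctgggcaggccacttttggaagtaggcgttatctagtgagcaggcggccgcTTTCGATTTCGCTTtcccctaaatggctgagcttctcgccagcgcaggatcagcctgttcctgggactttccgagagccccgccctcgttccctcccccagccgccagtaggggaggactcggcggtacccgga
B2M: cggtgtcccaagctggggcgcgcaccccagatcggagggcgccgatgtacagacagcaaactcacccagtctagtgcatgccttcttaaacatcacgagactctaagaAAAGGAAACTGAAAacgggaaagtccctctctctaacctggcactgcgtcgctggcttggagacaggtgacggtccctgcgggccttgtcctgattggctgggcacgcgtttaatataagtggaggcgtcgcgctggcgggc

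The IRF element was in 5 of the 7 windows, those of *HLA-B*, *HLA-C*, *B2M*, *TAP1* and *TAPBP*, and in 20.3% of 35116 windows of the same length over all genes. *HLA-B* had it from −155 to −148 and *HLA-C* from −151 to −144, counted from the start, whereas *B2M* and *TAP1* each had 2 overlapping matches, from −142 to −129 and from −134 to −121. The window of *PSMB9* (chr6:32853942-32854191, plus strand) overlaps that of *TAP1* at its far end. The *TAP1* matches thus also lie upstream of *PSMB9*, but outside the 250 bases searched for it. The CCAAT box ATTGG was in 5 of the 7 windows (32.0% of all windows), the CRE element TGACG in 5 of 7 (21.2%) and the NF-kB consensus in 5 of 7 (9.96%). The CCAAT matches of *TAP1* (−249 to −245) and *PSMB9* (−243 to −239) are the same bases, counted in both overlapping windows. Of sequences that the ETS family binds, only the exact letters GGAAGT were searched. These were in the windows of *HLA-B* and *TAP1* only (19.5% of all windows), and overlapped no IRF match. The shorter GGAA, with which GGAAGT begins, is also found in the *B2M* window, inside an IRF match, and in the *HLA-C* window, on the other strand. The search therefore does not show that the other windows lack ETS sequences. *B2M*, which was lower in shESE1, and *HLA-B*, *HLA-C* and *TAP1*, which were higher, thus shared the IRF element in these windows. These matches describe letters in the reference, and binding was not measured.

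Ratios within a library do not depend on how the 2 libraries are scaled to each other. They show how genes changed relative to each other, not whether either gene was higher or lower. The ratios were chosen after the values had been seen, and their 95% intervals come from a normal approximation on the counts. The FPKM of *B2M* was 1.42 times the sum of *HLA-B* and *HLA-C* in shCtrl and 0.787 times in shESE1, a log2 difference of −0.85 (−0.89 to −0.81). *B2M* to *HLA-B* went from 6.32 to 3.02, a log2 difference of −1.06 (−1.13 to −0.997), and *HLA-E* to the sum of *HLA-B* and *HLA-C* from 1.399 to 0.650, a difference of −1.11 (−1.15 to −1.06). *B2M* per *HLA-E* moved far less, from 1.02 to 1.21 (0.25). *HLA-B* to *HLA-C* went from 0.290 to 0.352 (0.28). Against these classical chains, the light chain and *HLA-E* were therefore both lower in the knockdown library, *HLA-E* more so than *B2M*.

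Summed over the 3 heavy chains, the RNA differed less than its parts did. *HLA-B* and *HLA-C* together had 67.5 FPKM in shCtrl and 89.4 FPKM in shESE1, from 11962 and 17379 counts. With *HLA-E* added, the sum was 162 FPKM and 148 FPKM, from 30552 and 29839 counts. The log2 ratio of count shares was 0.44 (interval 0.41 to 0.48) for the first sum and −0.13 (interval −0.15 to −0.11) for the second, so that the lower *HLA-E* outweighed the higher *HLA-B* and *HLA-C*.

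Within the loading complex, *TAP1* changed against its partners. *TAP1* to *TAP2* was 0.805 in shCtrl and 1.12 in shESE1 (log2 difference of 0.48, interval 0.39 to 0.56), and *TAPBP* to *TAP1* was 1.30 and 0.888 (−0.55). *TAP2* shared 35.5% of its sequence words with *AL669918*, which had 1 count in shCtrl and 0 in shESE1, and its log2 ratio of count shares was 0.42 with or without that gene.

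The immunoproteasome subunits were higher in FPKM, but lower when set against the constitutive subunits they replace. *PSMB8* to *PSMB5* was 0.115 in shCtrl and 0.0995 in shESE1 (log2 difference of −0.21, interval −0.29 to −0.12), and *PSMB9* to *PSMB6* was 0.0425 and 0.0290 (−0.55, interval −0.69 to −0.40). The remaining inducible subunit, *PSMB10*, to *PSMB7* was 0.0374 and 0.0294 (−0.35, interval −0.51 to −0.19). *PSMB10* shared 31.3% of its words with *AC040162*, and its log2 ratio of count shares was 0.20 alone and 0.41 with the counts of that gene added, so the *PSMB10* ratio is uncertain. The constitutive subunits themselves were at 83.7 and 149 FPKM for *PSMB5*, 76.2 and 134 FPKM for *PSMB6*, and 144 and 206 FPKM for *PSMB7*. Both libraries thus had far more constitutive than inducible catalytic subunit RNA, and the gap was wider in shESE1.

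**Figure D3:**
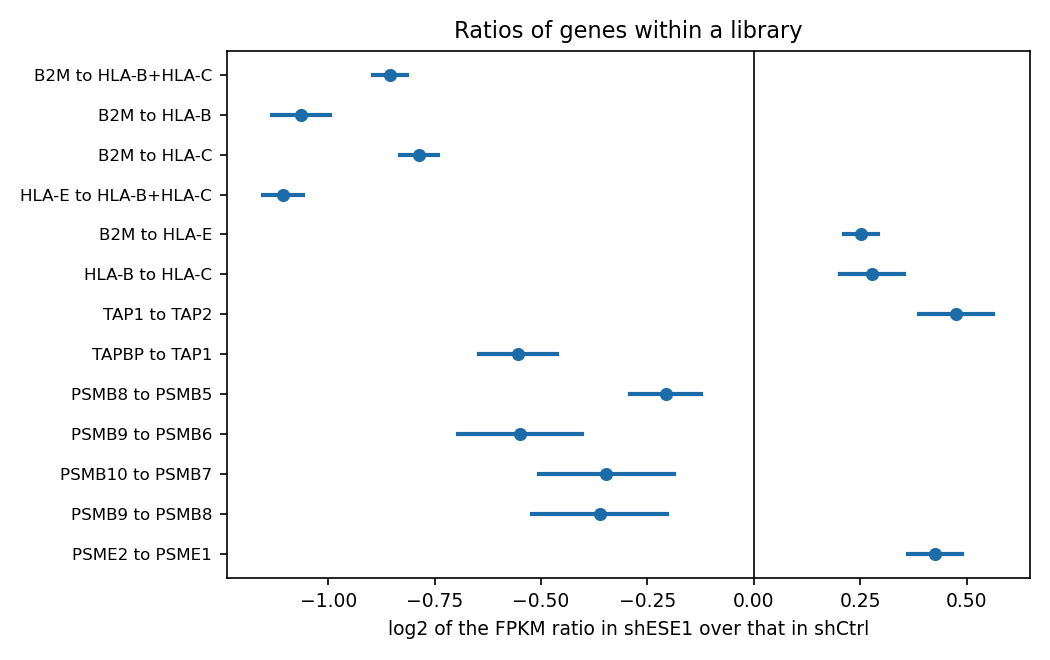
Log2 difference between shESE1 and shCtrl of within-library FPKM ratios of class I genes, with 95% intervals for counting error. *B2M* and *HLA-E* against the classical chains lie at −0.85 and −1.11, and each inducible proteasome subunit against its constitutive partner lies below 0.

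The class I chains outside the set were mixed. *HLA-F*, a non-classical chain, was at 2.54 FPKM in shCtrl and 3.61 FPKM in shESE1 (log2 change of 0.38), and *HLA-G* had 0 counts in both. The 4 compared genes of this list had a median of −0.44, and 1 of them, *HFE*, an MHC-like regulator of iron uptake, was past 2-fold lower, from 2.49 to 0.644 FPKM (−1.09). Without the pseudocount 2 were, *HFE* and *FCGRT*. Of all compared genes, 3.26% were past 2-fold lower, and 8.48% without the pseudocount. The class I-like *FCGRT*, the neonatal Fc receptor, was at 2.40 and 1.12 FPKM (−0.68) and *MR1*, which presents vitamin metabolites, at 1.98 and 1.61 FPKM (−0.19). *CD1D* and *AZGP1* were under 1 FPKM. The pseudogenes *HLA-H* and *HLA-V* were at 1.24 and 1.17 FPKM and at 0.646 and 1.08 FPKM.

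Of 11 other loading and trimming genes compared, 0 passed 2-fold, beside 3.26% of all compared genes lower and 3.14% higher. The median log2 change of these 11 genes was −0.09. *THOP1*, a cytosolic peptidase that destroys peptides, was at 7.15 and 13.7 FPKM (0.85). *CANX*, the chaperone calnexin that holds new heavy chains, was at 153 and 247 FPKM (0.69). *LNPEP*, an aminopeptidase used in cross-presentation, had a log2 change of −0.45 and *TAP2* one of 0.36. The 4 other induced proteasome genes had a median of 0.44 and none past 2-fold. Among them *PSMB10* was at 5.38 and 6.07 FPKM (0.15), *PSME1* at 68.9 and 81.6 FPKM (0.24), *PSME2* at 22.4 and 35.6 FPKM (0.65) and *POMP*, the proteasome assembly chaperone, at 42.5 and 77.5 FPKM (0.85). The median of the 3 constitutive partners was 0.81.

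**Figure D4:**
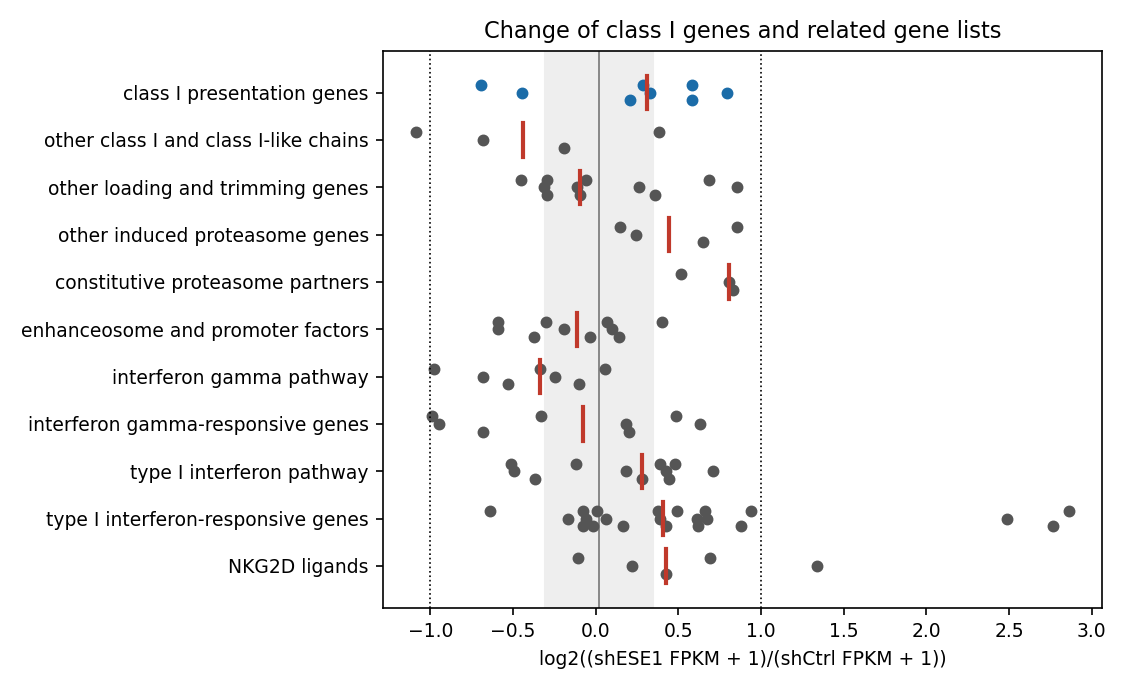
Log2 change of each compared gene in the class I set and the related lists, 1 point per gene, with the list median as a red bar and the quartiles of all compared genes as a grey band. The medians run from −0.44 for the other class I and class I-like chains to 0.81 for the constitutive proteasome partners, and the class I members spread from −0.69 to 0.79.

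Of 10 compared factors that act on class I promoters, 0 passed 2-fold, beside 3.26% of all compared genes lower and 3.14% higher. The 10 genes had a median log2 change of −0.11. *RFX5*, which binds the X box of class I promoters, was at 20.3 FPKM in shCtrl and 16.3 FPKM in shESE1 (−0.30). *CREB1* was at 2.21 and 1.13 FPKM (−0.59), *RELA*, an NF-kB subunit, at 14.8 and 9.51 FPKM (−0.59), *NFYA*, which binds CCAAT boxes, at 7.53 and 10.3 FPKM (0.40) and *RFXAP* at 2.64 and 1.81 FPKM (−0.37). *CIITA*, the class II transactivator, had 89 and 40 counts and stayed under 0.1 FPKM. Of 6 genes of the list of class I promoter silencing, 0 passed 2-fold and the median was 0.20, with *EED* at 3.88 and 5.88 FPKM and *DNMT1* at 10.6 and 14.9 FPKM.

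Interferon gamma is the classic inducer of class I genes, and *IFNG* had 0 counts in both libraries. Of 7 compared genes of its pathway, 0 passed 2-fold and 6 were below 0, with a median of −0.34. Among all compared genes 48.5% were below 0, and 3.26% and 3.14% passed 2-fold lower and higher. Without the pseudocount 1 gene of the pathway passed, *SOCS3*, which was 2.17-fold lower, beside 8.48% of all compared genes. *IRF1*, a direct activator of class I promoters, was at 4.66 and 3.47 FPKM (−0.34) and *IRF2* at 6.23 and 5.73 FPKM (−0.10). *SOCS3*, a feedback inhibitor, was at 10.4 and 4.78 FPKM (−0.97), the kinase *JAK1* at 7.58 and 4.35 FPKM (−0.68) and the phosphatase *PTPN2* at 4.59 and 2.87 FPKM (−0.53). Of 8 compared interferon gamma-responsive genes outside the set, 0 passed 2-fold and 4 lay on each side of 0. Without the pseudocount 3 passed, all lower, namely *GBP2* (5.62-fold), *BTN3A2* (2.45-fold) and *BTN3A3* (2.30-fold). *GBP2* was at 1.52 and 0.271 FPKM (−0.99) and *BTN3A2* at 4.39 and 1.79 FPKM (−0.95). Of the 4 that were higher, *APOL2* had the largest change, at 7.53 and 12.2 FPKM (0.63).

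Genes known mainly for the type I interferon response had a higher median, 0.41 over 22 compared genes. Of these, 3 (*IFI6*, *IFI27* and *ISG15*) were past 2-fold higher and 0 lower, beside 3.14% and 3.26% of all compared genes. Without the pseudocount 6 were higher, with *IFIT1*, *MX1* and *OASL* added, and 1 lower, *SAMD9L* (2.68-fold). The shares of all compared genes were then 5.48% higher and 8.48% lower. *ISG15* was at 6.78 and 42.6 FPKM (2.49). The type I pathway list had a median of 0.28 over 11 compared genes with 0 past 2-fold, and *USP18* was at 6.49 and 11.2 FPKM (0.71).

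Class I loci resemble each other and some members overlap other genes, and no read was examined for this. With words of 100 bases, *HLA-B* shared 0% of its transcript words with other genes, *HLA-C* 0.236%, *HLA-E* 0.253% and *PSMB9* 0.959%, and *B2M*, *TAP1*, *TAPBP*, *PSMB8* and *NLRC5* 0%. How far the HLA alleles of L3.6 differ from the reference was not tested. The annotated span of *HLA-B* overlaps *HLA-C* by 2615 bases on the same strand. It also overlaps *RPL3P2* by 1203 bases on the opposite strand, a gene with 2717 counts in shCtrl and 2341 in shESE1. *TAP1* and *PSMB9* overlap by 8770 bases and *PSMB8* and *PSMB9* by 544 bases, on opposite strands. The libraries were made to keep the strand, but whether counting used it is not given in the sources used here. *PSMB8-AS1*, a non-coding RNA gene that overlaps *PSMB9* on the same strand by 2365 bases, had 201 and 110 counts.

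Every member kept its direction under the alternative scalings. Another pseudocount or filter cannot turn the direction of a gene, but it can alter its distance from the median of all compared genes. Relative to the median of all compared genes, the log2 change of *HLA-B* lay between 0.43 and 0.67, that of *HLA-C* between 0.18 and 0.40, that of *TAP1* between 0.58 and 0.90 and that of *PSMB8* between 0.43 and 0.67. *HLA-E* lay between −0.84 and −0.63 and *B2M* between −0.60 and −0.38. *PSMB9* and *NLRC5* came nearest to the median, with lower ends of 0.06 and 0.02.

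**Figure D5:**
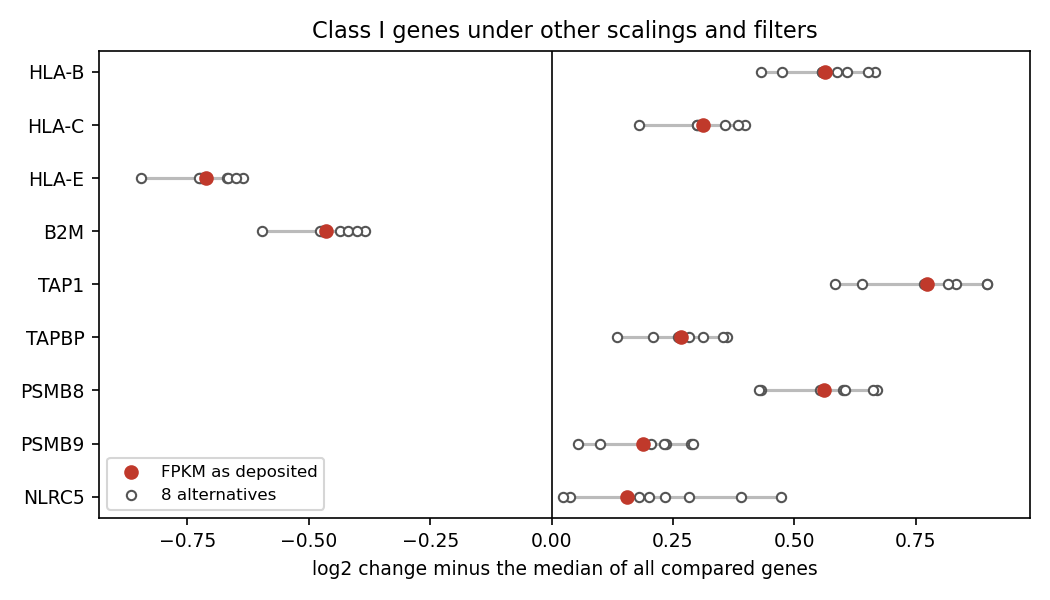
Log2 change of each class I gene, less the median of all compared genes, under the main setting (red) and 8 alternative scalings, pseudocounts and filters, 1 point per setting. *HLA-E* and *B2M* stay left of 0 and the other 7 genes right of 0 in every setting.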

How the data were processed

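RNA of 1 shCtrl and 1 shESE1 library of L3.6 cells was analysed. For each gene, FPKM and whole-number counts without normalization were deposited by the authors. A gene with no reads has the value 0.0001 in the deposited FPKM, and 0 was used in its place. The submitters' processing notes list the tools fastp, HISAT2 and StringTie, with GRCh38 and mm10 as builds. The counting program, and any version or role, is not given in the sources used here. The labels describe strand-marking paired-end poly(A) libraries.

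The members and gene lists were chosen with earlier results of these data known. Changes were computed as log2((shESE1 FPKM + 1)/(shCtrl FPKM + 1)) after a filter of 1 FPKM in either library. No test across genes was run, since there was 1 library per condition. All members were named. Of each other list, up to 4 genes with the largest absolute change were eligible to be named, besides class I chains, proteasome genes and the chosen regulators, and not all are given. Some genes of the heavy-chain and interferon gamma pathway lists are not reported here, and the list counts and medians leave them out. GENCODE v29 transcripts were cut into words of 100 bases at steps of 10 to find sequence shared between genes. The calculation was tested on simulated counts. Other pseudocounts, filters, fold thresholds, word lengths and scalings (median ratio, TPM, CPM with a purpose-written TMM, totals without mitochondrial genes) were tried. Python 3.11.15 was used, with pandas 2.3.3, numpy 2.4.6, matplotlib 3.10.9 and scipy 1.17.1.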

Additional observations from a re-analysis of the deposited data

How the results depend on the processing

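All 9 members kept the sign of their log2 change under all 8 alternative pseudocounts, filters and scalings. A pseudocount or a filter cannot change the sign of a gene, so only the alternative scalings could have done so. The median change of the members, 0.31 in the main setting, was 0.56 as TPM, 0.41 as CPM with TMM scaling and 0.18 without mitochondrial genes in the totals. Less the median of all compared genes it was 0.29, and 0.38 with TMM scaling and 0.18 under a filter of 5 FPKM, where 7 members were left. As TPM, 1 member (*TAP1*) was at least 2-fold higher, beside 8.72% of all genes, against 0 in the main setting. At a threshold of 1.5-fold, 1 member was lower (*HLA-E*, beside 11.5% of genes) and 1 higher (*TAP1*, beside 12.2%), with *HLA-B* and *PSMB8* just under it once the pseudocount was added. Without a pseudocount, chosen after seeing the data, 0 members passed 2-fold, and at 1.5-fold 1 was lower (beside 18.4% of genes) and 3 higher (*TAP1*, *HLA-B* and *PSMB8*, beside 16.6%). Counts of all genes past 2-fold were 408 lower and 393 higher in the main setting, 1062 and 686 with none, 958 and 644 with a pseudocount of 0.1, and 110 and 142 with a pseudocount of 5. The median of all genes moved from 0.02 to 0.20 as TPM and to −0.10 without mitochondrial genes. With words of 50 bases, *HLA-C* shared 6.13%, *HLA-E* 4.15% and *HLA-B* 2.77% of its words with other genes, so no member reached the 20% at which counts would have been summed. Leaving out a replicate was not run, and no paired analysis was possible because each condition had 1 library. No spread between cultures was measured, and levels near 1 FPKM, such as that of *NLRC5*, are the least precise.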

Other observations

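Ligands of NKG2D, the activating receptor of natural killer cells and CD8+ T cells, are distant relatives of the class I chains that bind no *B2M*. Of 5 compared, 1 was past 2-fold higher, beside 3.14% of all compared genes, and 0 were lower, beside 3.26%. The median log2 change of the 5 was 0.43. *MICB* was at 5.52 FPKM in shCtrl and 15.5 FPKM in shESE1 (1.34) and *MICA* at 3.53 and 6.31 FPKM (0.69). The 2 class I chains named above as ligands of killer-cell receptors differed in opposite directions. *HLA-E* was lower in shESE1 (−0.69) and *HLA-C* was higher (0.33). *ULBP2* was at 13.4 and 18.4 FPKM (0.43) and *ULBP3* at 2.20 and 1.97 FPKM (−0.11). *ULBP1*, under 1 FPKM in both libraries, had 165 and 17 counts, which was 10.7-fold lower in FPKM (95% interval of the log2 ratio −4.23 to −2.69). *RAET1L*, also under 1 FPKM in both, went the other way, from 0 to 81 counts, and *RAET1E* had 18 and 15 counts. These are RNA levels, and surface protein was not measured.

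MHC class II genes were at low levels, and 4 of 12 had 0 counts in both libraries. Only *HLA-DMA* reached 1 FPKM, at 1.44 in shCtrl and 0.305 in shESE1 (log2 change of −0.90), from 247 and 58 counts. Without the pseudocount it was 4.72-fold lower, beside 8.48% of all compared genes past 2-fold lower. *HLA-DMB* had 205 and 8 counts and *CD74*, the invariant chain, 92 and 23.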
